A study of Homo sapiens with 2 samples.

Results

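The 9 HOXD genes were read from a pair of arrays of SBC-3 cells, an adherent small-cell lung cancer (SCLC) line, 1 transfected with #1 siHOTAIR and 1 with siGFP, a control siRNA directed at green fluorescent protein. The members were HOXD1, HOXD3, HOXD4, HOXD8, HOXD9, HOXD10, HOXD11, HOXD12 and HOXD13, and their probes were found by matching the RefSeq accession of each spot to a gene symbol. All 9 had a matched probe, among 19061 named genes, and together they were covered by 10 probes and 26 spots. Both cultures were of the same cell line and differed, by their labels, in the siRNA. There was 1 array per condition, with no replicate, so no test between the conditions was possible, and the culture and the array cannot be told apart from the siRNA. A change in every cell and a change in part of the cells cannot be told apart either.

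HOX genes encode homeodomain transcription factors that pattern the body axis, and they lie in clusters in the order in which they act from head to tail. The HOXD cluster runs from HOXD13, which acts in the digits and the genital bud, to HOXD1 at the anterior end. HOTAIR is a long noncoding RNA transcribed antisense within the HOXC cluster. It is known for binding Polycomb repressive complex 2 (PRC2) and the LSD1-CoREST-REST complex and for silencing part of the HOXD cluster on another chromosome. The comparison asks how the HOXD genes read in cells given an siRNA against HOTAIR.

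The agent that separated the groups was a duplex of short RNA strands. It is shown here with its 19 paired bases in capitals and its overhangs in lower case, both strands from the 5′ end.
Sense strand of #1 siHOTAIR: GAACGGGAGUACAGAGAGAuu
Antisense strand of #1 siHOTAIR: UCUCUCUGUACUCCCGUUCuu
HOTAIR itself read 108 with #1 siHOTAIR and 244 with siGFP, a log2 ratio of -1.22 on its 1 spot.

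Beside the values, the sequence just upstream of 4 members is shown, namely HOXD8, HOXD1 and HOXD3, on which the comparison turns, and HOXD10, a bright gene that differed little. Each run is the 250 bases before the annotated start in RefSeq, GRCh38.p14, plus strand, with the motif CACGTG in capitals, a hexamer that reads the same on both strands and is known as a binding site of basic helix-loop-helix factors.
HOXD1, chr2:176188418-176188667: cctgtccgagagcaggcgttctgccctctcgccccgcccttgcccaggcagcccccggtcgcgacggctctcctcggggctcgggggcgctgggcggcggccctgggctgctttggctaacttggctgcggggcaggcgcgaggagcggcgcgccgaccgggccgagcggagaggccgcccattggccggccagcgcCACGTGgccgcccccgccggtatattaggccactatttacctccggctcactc
HOXD3, chr2:176157057-176157306: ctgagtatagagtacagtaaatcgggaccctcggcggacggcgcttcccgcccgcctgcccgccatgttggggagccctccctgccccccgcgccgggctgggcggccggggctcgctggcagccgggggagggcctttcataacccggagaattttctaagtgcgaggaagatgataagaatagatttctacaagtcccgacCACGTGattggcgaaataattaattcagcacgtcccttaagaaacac
HOXD8, chr2:176129455-176129704: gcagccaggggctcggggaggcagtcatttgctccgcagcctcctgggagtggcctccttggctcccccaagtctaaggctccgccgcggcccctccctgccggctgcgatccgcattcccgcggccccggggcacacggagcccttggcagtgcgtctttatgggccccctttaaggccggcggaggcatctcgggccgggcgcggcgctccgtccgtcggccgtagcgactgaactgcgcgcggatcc
HOXD10, chr2:176116528-176116777: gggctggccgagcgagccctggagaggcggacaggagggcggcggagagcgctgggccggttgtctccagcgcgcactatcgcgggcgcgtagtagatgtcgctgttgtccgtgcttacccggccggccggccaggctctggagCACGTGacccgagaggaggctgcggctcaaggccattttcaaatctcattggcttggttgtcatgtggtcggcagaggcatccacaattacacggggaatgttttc

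A window was found for 8 of the 9 members, all but HOXD9. CACGTG lay in 5 of the 8, those of HOXD13, HOXD11, HOXD10, HOXD3 and HOXD1, whereas 6.34% of 35116 windows of the same length over all genes held it. HOXD1, which was higher in #1 siHOTAIR-transfected cells, and HOXD3, which was lower, both held the hexamer, and HOXD8 did not. CCAAT, the letters bound by NF-Y, was found on either strand in 6 of the 8 windows and in 32.0% of all windows. TATAAA, the core of the element bound by TBP, was found on either strand in 1 of the 8, that of HOXD13, and in 10.7% of all windows. The windows were rich in the dinucleotide CG, the substrate of DNA methylation and a feature of Polycomb targets, with 4 in HOXD4 and 16 to 31 in the other 7, against a median of 11 over all windows. CACGTG itself contains a CG, and among the 9838 windows with at least 22 CG, the median of the HOXD windows, 9.25% held the hexamer. HOXD1 had the most CG, 31, a number reached by 10.9% of all windows. The HOXD1 window shared 145 and 102 bases with stretches around starts of HAGLR, a noncoding RNA read from the opposite strand, which had no matched probe. Unlike the windows, those stretches also held bases past the start. The hexamer was chosen after the sequences had been seen, and these matches describe letters only.

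The values below are processed signals, the background-subtracted intensity of a spot, and a log2 ratio is the signal in #1 siHOTAIR-transfected cells over that in siGFP-transfected cells after each array was set to its own 75th percentile (650 and 630). The scanner software called a spot well above background or not. A probe was counted so where 50% or more of its spots were. HOXD1, HOXD3, HOXD9, HOXD10 and HOXD11 were well above background on both arrays, HOXD8 on the #1 siHOTAIR array only, and HOXD13 on the siGFP array only. HOXD4 and HOXD12 were so on neither. The posterior genes HOXD9 to HOXD11 and the anterior genes HOXD1 and HOXD3 were thus measured in SBC-3 cells, and they are separated along the cluster by HOXD8 and HOXD4. Levels of different genes were not ranked, because probes differ in brightness for the same amount of RNA.

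**Figure D1:**
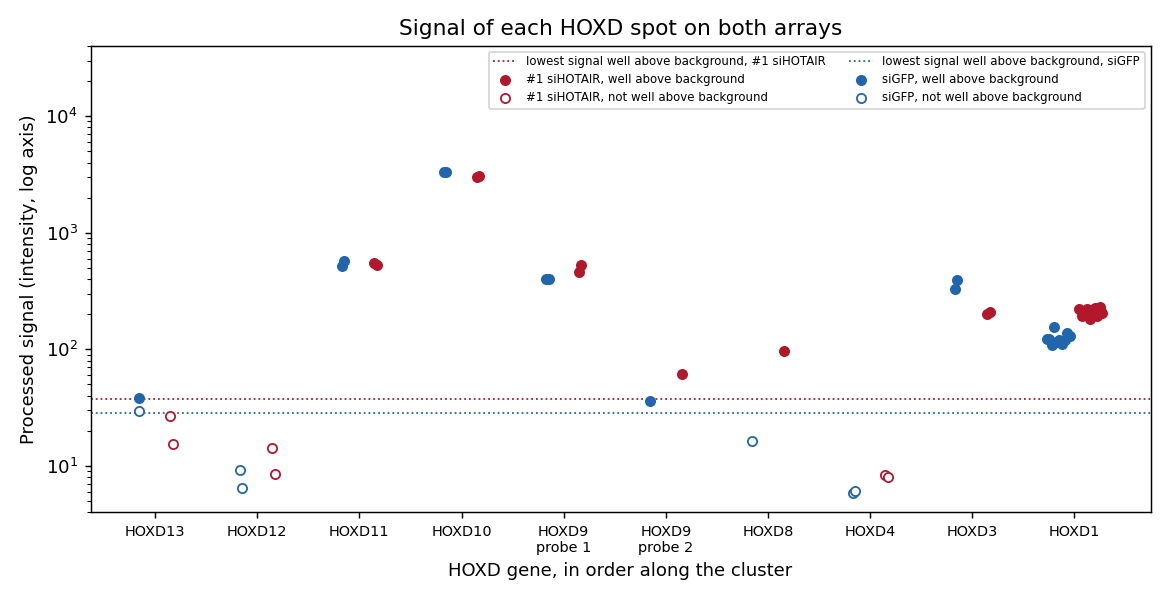
Processed signal (intensity, log axis) of each of the 26 HOXD spots on the #1 siHOTAIR and siGFP arrays, with genes in order along the cluster and dotted lines at the lowest signal well above background of any spot, 37.3 and 28.6. The spots of HOXD1 lie at 182 to 230 with #1 siHOTAIR and at 108 to 156 with siGFP, those of HOXD3 lie the other way, and those of HOXD4 and HOXD12 lie below both lines.

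Of the 7 HOXD genes compared, 1 was higher by 2-fold or more with #1 siHOTAIR (HOXD8) and 0 were lower by 2-fold or more. Counted by gene with 1 probe each, 354 of all 13005 genes compared were higher and 441 lower. Of all 24117 probes compared, with several for some genes, 3.30% and 4.10% were so, or 795 and 989 probes. That balance turned to 1025 and 781 with spike-in scaling. None of the 5 genes well above background on both arrays reached 2-fold, and of all 12026 such genes 346 did. The median log2 ratio of the 7 genes was -0.06, against 0.02 over 13005 genes compared, with 3 of the 7 above 0. At 1.5-fold, 2 of the 7 were higher (HOXD1 and HOXD8) and 2 were lower (HOXD3 and HOXD13), where 8.50% and 9.74% of all probes compared were so. HOXD13 is counted there by its dim signal alone and has no bound on that side.

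HOXD1, the anterior end of the cluster and active in the early nervous system, was read from a probe with 10 spots, the most of any member. Its spots read 182 to 230 (median 208) with #1 siHOTAIR and 108 to 156 (median 122) with siGFP. The ranges of the spots did not overlap, and HOXD1 was higher with #1 siHOTAIR at 9 of 9 spot positions read on both arrays. The software marked 1 of the 10 spots on the siGFP array as an outlier, and it was left out. The log2 ratio was 0.68, or 1.60-fold, and the ratios of the 9 spots read on both arrays ran from 0.47 to 0.92 with an SD of 0.13. The ratio was 11.4 times 0.06, the SD that repeated spots at this signal give for a mean ratio over as many spots. It was 9.47 times the software's own error of 0.07, also for the mean. Below, the SD of repeated spots, or an SD beside the log2 ratio of a probe, is this SD of the mean. Both errors describe how well an array was read and leave out how far cultures vary. Among 652 probes with 10 spots that were well above background on both arrays, 3.53% were at least 1.5-fold higher and 7.67% at least 1.5-fold lower. The 5 spots in the first 144 of the 384 rows of the array, which were left out as an alternative, had a mean log2 ratio of 0.68, and the others with a ratio 0.65.

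HOXD3, a regulator of anterior patterning and of adhesion genes, went the other way. Its 2 spots read 200 and 209 with #1 siHOTAIR against 328 and 394 with siGFP. Both were lower with #1 siHOTAIR, with no overlap. The log2 ratio was -0.86, so the signal was 1.81-fold lower, 9.37 times the SD of repeated spots (0.09) and 5.60 times the software error (0.15). The spots gave -0.76 and -0.96, the first of them within the first 144 rows. Of 4640 probes with 2 spots well above background on both arrays, both spots were at least 1.5-fold lower in 4.03% and at least 1.5-fold higher in 4.96%. HOXD1 and HOXD3, neighbours among the protein-coding genes at this end of the cluster, thus lay on opposite sides of 0.

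HOXD4, the other anterior member and a hindbrain gene, read 8.40 and 8.02 with #1 siHOTAIR against 5.90 and 6.06 with siGFP. Neither array read it above background, so no fold is given. These dim readings gave a log2 ratio of 0.41, beside a median of 0.34 over the 18285 probes that no array read above background.

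HOXD8, which patterns the trunk, was read from 1 spot, in the rows outside the first 144. It read 95.8 with #1 siHOTAIR, well above background, and 16.4 with siGFP, not well above background. Counting the dim reading as 28.6, the lowest signal well above background on the siGFP array, HOXD8 was 3.24-fold higher with #1 siHOTAIR. This bound is not a strict minimum, since a dim spot can read above 28.6, as 1 of HOXD13 did on that array (29.8). The dim reading at its own level gave a log2 ratio of 2.50, against 1.70 by the bound. A probe that passes through 1 array only had to differ. Of 552 probes with 1 spot that were well above background on the #1 siHOTAIR array only, 42.4% were at least 4-fold higher there, so the size of the HOXD8 value is common for its class. HOXD8 was below 2-fold with other background handling, to a log2 ratio of 0.86 with normexp correction and 0.70 without correction, and it had no second spot or probe.

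**Figure D2:**
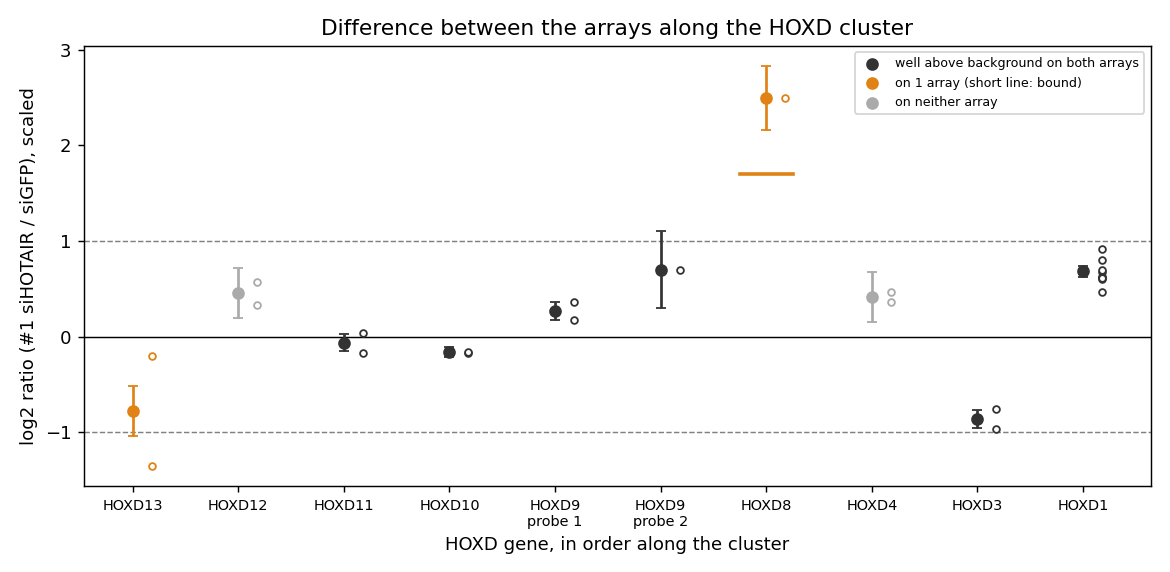
Log2 ratio of each HOXD probe (filled points) with genes in order along the cluster, bars for the SD of the mean expected from repeated spots, open points for single spots and dashed lines at 2-fold. HOXD1 lies at 0.68 and HOXD3 at -0.86, HOXD8 at 2.50 with its bound at 1.70 as a short line, and HOXD10 and HOXD11 within 0.17 of 0.

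The posterior genes HOXD9 to HOXD13 are relatives of the fly gene Abdominal-B and pattern limbs and the lower trunk. HOXD10 and HOXD11 had the ratios nearest to 0 of all members. HOXD10, which also specifies lumbar motor neurons, read 3028 and 3082 with #1 siHOTAIR against 3296 and 3328 with siGFP. Its spots did not overlap, yet the log2 ratio was only -0.16, 3.01 times the SD of repeated spots (0.05) and 1.13 times the software error (0.14). It was -0.03 when the arrays were scaled to the spike-in RNA, so a difference of this size depends on the scaling.

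HOXD11, a gene of forearm and kidney development, read 553 and 526 with #1 siHOTAIR against 520 and 571 with siGFP. The spots overlapped and the log2 ratio was -0.06 with an SD of 0.09, which became 0.08 with the spike-in scaling. A difference was not detectable here beyond the error of the spots.

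HOXD9, the most anterior of the posterior group, had 2 probes. The probe with 2 spots read 465 and 527 with #1 siHOTAIR against 398 on both spots with siGFP, a log2 ratio of 0.27 with an SD of 0.09. The probe with 1 spot read 61.0 with #1 siHOTAIR and 36.3 with siGFP, a log2 ratio of 0.70 with an SD of 0.40. Both probes were higher with #1 siHOTAIR, the first by 2.92 and the second by 1.76 times the SD of repeated spots. The first difference was 1.83 times the software error and the second 1.84 times.

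HOXD12 read 14.3 and 8.46 with #1 siHOTAIR against 9.28 and 6.49 with siGFP, with no spot well above background, so no fold is given. HOXD13, the last gene of the cluster and a digit gene, read 26.7 and 15.3 with #1 siHOTAIR against 29.8 and 37.9 with siGFP. Only the last of these 4 readings was well above background. The mean of its siGFP spots (33.6) lay under the lowest signal well above background on the #1 siHOTAIR array (37.3), so no fold can be stated. Its spots disagreed, with log2 ratios of -0.20 and -1.36.

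The genes beside the cluster and its noncoding RNAs were read from a list of 8, of which 4 had a matched probe. EVX2, a homeobox gene next to HOXD13, read 23.9 and 25.7, with neither array well above background. LNPK, which shapes the endoplasmic reticulum, had a log2 ratio of 0.05 by the probe well above background on both arrays. MTX2, a mitochondrial import protein on the HOXD1 side, had -0.10 over 10 spots, and ATP5MC3, an ATP synthase subunit, had -0.23. None of the 3 flanking genes measured reached 2-fold, whereas HAGLR, HAGLROS, HOXD-AS2 and MIR10B were not read.

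The paralogues of a HOXD gene are the genes with the same number in the HOXA, HOXB and HOXC clusters. HOXD3 was lower by 0.86 on the log2 scale, while HOXB3 had a log2 ratio of 0.79 and HOXA3 of 0.04. HOXD8 was the member at least 2-fold higher, while HOXB8 had -0.91 and HOXC8 -0.71. In group 9, HOXD9 had 0.27, HOXA9 0.24, HOXC9 0.08 and HOXB9 -0.17. In group 10, HOXD10 had -0.16, HOXA10 0.46 and HOXC10 0.53. In group 11, HOXD11 had -0.06, HOXA11 -0.13 and HOXC11 0.71. HOXD9 and HOXA9 thus lay close together, as did HOXD11 and HOXA11, while HOXB9 and HOXC11 lay apart from them. HOXC11 rested on 1 spot of low signal, 61.5 with #1 siHOTAIR and 36.4 with siGFP, with an SD of repeated spots of 0.40. In each of the groups named here the ratios lay on both sides of 0. Of genes well above background on both arrays, the median log2 ratio was -0.06 for 5 HOXD genes, 0.18 for 7 HOXA genes, 0.19 for 8 HOXB genes, 0.41 for 8 HOXC genes and 0.03 for 12026 genes in all. The difference between the clusters was not tested. In the other clusters, HOXC4 was at least 2-fold higher (a log2 ratio of 1.46 over 2 spots) and so was HOXA2 (1.04 on 1 spot). HOXA13, dim with siGFP, and HOXB7, dim with #1 siHOTAIR (1.16-fold lower by its bound), passed 2-fold at their own signals and not by their bounds.

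**Figure D3:**
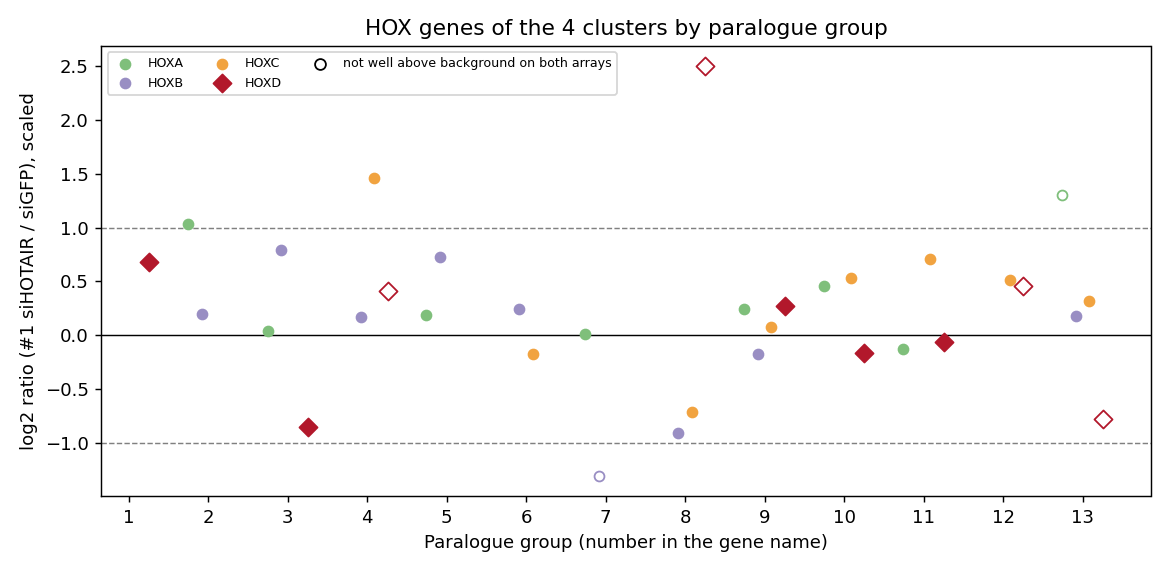
Log2 ratio of HOX genes by paralogue group, with every HOXD gene as a diamond, genes of the other clusters that 1 array or both read well above background as circles, open symbols for genes not well above background on both arrays and dashed lines at 2-fold. In group 3 HOXD3 lies at -0.86 and HOXB3 at 0.79, and in group 8 HOXD8 lies at 2.50 above HOXC8 at -0.71 and HOXB8 at -0.91.

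The machinery that HOTAIR is known to bind was measured on the same arrays. The 10 PRC2 genes with a probe were all measured on both arrays, and none reached 2-fold, from -0.25 for EZH1 to 0.50 for SUZ12, with a median of -0.07. EZH2, the catalytic subunit, had -0.16. All 9 genes of the LSD1-CoREST-REST list were measured and none reached 2-fold, from -0.70 for PHF21A to 0.87 for RCOR2, with KDM1A (LSD1) at -0.16 and a median of -0.10. Nor did any of the 12 PRC1 genes (median 0.11), of the 9 genes of H3K27 demethylases and the MLL complex (0.10), or of the 7 TALE cofactors of HOX proteins compared (0.02). Of all 13005 genes compared, 354 were at least 2-fold higher and 441 at least 2-fold lower. Lists this short can thus hold none without that being a result about them. Spike-in scaling moved the median of all probes from 0.03 to 0.17, so ratios as small as these medians depend on the scaling. Some single genes lay further from 0 than that. Among them were SUZ12 (0.50 over 10 spots, SD of repeated spots 0.02), RCOR2 (0.87 on 1 spot, SD 0.09) and PHF21A (-0.70 on 1 spot, SD 0.31). KDM6B, an H3K27 demethylase, had the largest ratio of these lists, 0.94 on 1 spot (SD 0.40). It was well above background with #1 siHOTAIR only.

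The spots of the whole series set the limits of these values. With #1 siHOTAIR the software called 55.5% of the spots that are not controls well above background, and with siGFP 58.3%. The reference genes ACTB and GAPDH had log2 ratios of -0.02 and 0.00. Of 12 SCLC markers, 6 were well above background with #1 siHOTAIR and 4 with siGFP. NEUROD1, ENO2, DLL3 and YAP1 were so on both, and POU2F3, INSM1, SYP, UCHL1 and GRP were among those on neither. CHGA, dim with siGFP, was 2.44-fold higher with #1 siHOTAIR by its bound. NCAM1 was read by the #1 siHOTAIR array only (25.5 and 7.20) and the epithelial marker EPCAM by the siGFP array only (9.19 and 25.1), with no bound to give. Among 5 epithelial markers, 3 were well above background with #1 siHOTAIR and 3 with siGFP. KRT8 and KRT18 were so on both, with log2 ratios of 0.10 and -0.44, and CDH1 on neither. KRT19, dim with siGFP, went the other way from EPCAM and was 1.33-fold higher with #1 siHOTAIR by its bound. Of 6 fibroblast markers, both arrays read COL1A1 and COL1A2 well above background and neither read COL3A1, LUM, DCN or PDGFRB so. Of 4 leukocyte markers with a probe, PTPRC and CD14 were so on both. The summed signal in #1 siHOTAIR- and siGFP-transfected cells was 8218 and 8542 for the SCLC markers, 3313 and 3181 for the epithelial, 4628 and 4183 for the fibroblast, and 254 and 220 for the leukocyte markers. YAP1 alone gave 6522 and 6750 of the SCLC sums and COL1A2 3758 and 3741 of the fibroblast sums, so these sums do not follow the dimmer markers. Both cultures were of the SBC-3 line, so the fibroblast and leukocyte markers are not a measure of other cell types. Whether the marker differences bear on the HOXD values was not tested.

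**Figure D4:**
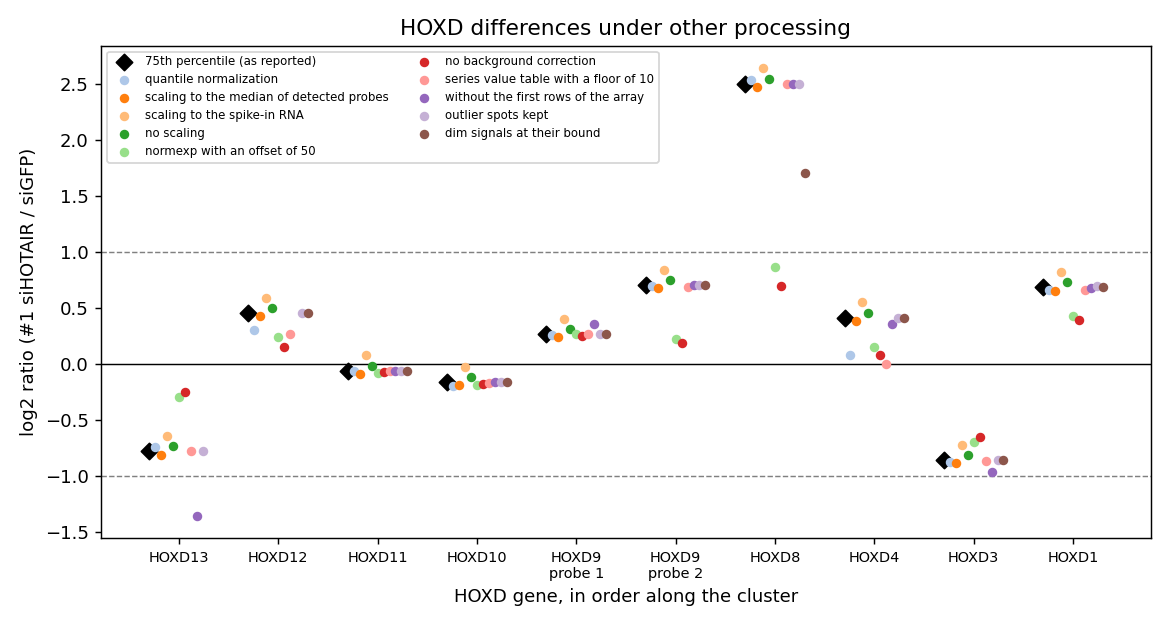
Log2 ratio of each HOXD probe as reported (black diamonds) and under up to 10 other ways of scaling, background correction or spot choice (coloured points), with dashed lines at 2-fold. HOXD1 stays between 0.39 and 0.82 and HOXD3 between -0.96 and -0.65, whereas HOXD8 ranges from 0.70 to 2.64.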

How the data were processed

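The authors hybridized each Cy3-labelled RNA to 1 Agilent array. Per the submitters' processing notes, Agilent Feature Extraction 10.10.1.1 was used. Its processed signal, as deposited, is an intensity corrected for background and slide trends, with no normalization between arrays. The value table of the series holds the background-subtracted intensity of the same spots.

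Signals were taken as log2 and each array was scaled by subtracting its 75th percentile (58717 spots, controls excluded). Outlier spots were dropped from their own array, and log2 values were averaged over the spots of a probe. A probe entered the comparison if 1 array or both read 50% or more of its spots well above background. Lists used the probe of a gene with the highest mean signal. The SD of repeated spots came from the spread among the spots of probes with 10 spots at a like signal. It was scaled to a mean over the spots of the probe concerned. Calls were checked on simulated data. The changed probes there were drawn only from signals above the 75th percentile, with the same noise at every signal. That check thus does not cover dim probes. Accessions were matched to a table of GRCh38.p14, used for names and order, which named 58.5% of the probes. Named genes were all HOXD members, HOTAIR, the reference genes, the genes beside the cluster and any gene of the other lists at least 2-fold changed. Paralogues, some subunits of the HOTAIR partners, KDM6B and the markers were named after their values were seen. The members and lists were chosen with earlier results of these data known. Some genes of the lists are not reported here.

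The alternatives were quantile normalization, scaling to detected probes or to spike-in RNA, no scaling, normexp correction (limma 3.58.1, offset 50), no background correction (both on the median of the pixels, as the mean is not in the columns used here), the value table with a floor of 10, other filters, thresholds of 1.5-fold and 3-fold, and leaving out the first 144 rows.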

Additional observations from a re-analysis of the deposited data

How the results depend on the processing

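No paired analysis was possible because each condition had 1 array, and for the same reason no replicate could be left out. The HOXD ratios were recomputed in 98 combinations of a probe and a setting, of which 76 stayed within 1 SD of repeated spots and 22 moved further. Some of the 76 could not move, since keeping outlier spots, for instance, changes nothing for a probe without one. HOXD8, the 1 gene at least 2-fold changed as reported, did not reverse. HOXD1 and HOXD9 stayed above 0 and HOXD3 and HOXD10 below 0 under every setting run, and HOXD11 turned to 0.08 with spike-in scaling, which shifts the median of all probes from 0.03 to 0.17. The number of HOXD genes at least 2-fold higher was 1, and it was 0 with normexp correction, without background correction and with every spot required to be well above background on both arrays, and 2 at 1.5-fold. The number lower was 0, and it was 1 without the first 144 rows (HOXD13, from its remaining spot) and 2 at 1.5-fold. The HOXD median of -0.06 became 0.076 with spike-in scaling, 0.10 with dim signals at their bound (the value of HOXD13, whose bound lay on the other side of 0), and 0.27 with no filter on dim probes. Over all probes, 795 higher and 989 lower became 227 and 187 with normexp correction, 173 and 154 without background correction, 358 and 549 without the first 144 rows, 313 and 317 with every spot well above background on both arrays, 1933 and 1866 with no filter, 2050 and 2348 at 1.5-fold, and 377 and 411 at 3-fold. With dim signals at their bound they were 561 and 498, and with spike-in scaling 1025 and 781, so both turned the balance of higher and lower. The cause of these shifts was not tested, other than the fewer probes or spots that a filter or threshold leaves by its construction. Precision was limited by signal over background, and HOXD4, HOXD12 and HOXD13 lay at or under its limit.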
